A study of Schizosaccharomyces pombe with 384 samples.

Results

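Of the 7259 genes in the deposited table of *S. pombe* transcripts, 138 lay within 100 kb of an end of chromosome I or II and were not named as antisense or noncoding RNAs. The rule that picks these subtelomeric genes uses their position and name, and none of their measured values. There were 38 at the left and 33 at the right end of chromosome I, and 36 at the left and 31 at the right end of chromosome II. The reference annotated 124 of them as protein-coding and 13 as pseudogenes, and 1 was not matched. Within the same distance, 47 antisense or noncoding genes were left out.

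RNA of 94 haploid deletion strains and of wild type was sequenced from the 3′ ends of transcripts, so that the reads lie near the poly(A) tail. All strains were grown in rich medium (YES) in deep-well plates, and 384 libraries were sequenced, 4 per deletion strain and 8 for wild type. Each deletion strain lacked the open reading frame of 1 gene and came from a commercial collection with 1 isolate per gene, so that other changes in an isolate cannot be told apart from the labelled deletion. Wild type occupied wells A1 and A2, and the description field of some of its labels calls it a knock-out, while the titles name it wild type. Every strain was compared with the same 8 wild-type libraries, which the comparisons therefore share.

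Of the strains, 12 are described singly. The 5 with the most subtelomeric genes called altered were *mcl1*Δ (a replisome factor), *tcg1*Δ (a protein that binds single-stranded telomeric DNA), the libraries labelled *erg4*Δ (an enzyme of ergosterol synthesis), *swd3*Δ (a subunit of the Set1 histone methyltransferase complex) and *cay1*Δ (a cactin homologue), and 3 strains tied for the next place, *ada2*Δ and *ngg1*Δ (subunits of the SAGA histone acetyltransferase complex) and *cdt2*Δ (a substrate receptor of the Cul4-Ddb1 ubiquitin ligase). The other 4 were taken for what the deleted gene is known to do, whatever their counts. They were *ers1*Δ (a factor of RNAi-directed heterochromatin), *lem2*Δ (an inner nuclear membrane protein), *amo1*Δ (a nuclear rim protein) and *arp5*Δ (a subunit of the INO80 chromatin remodeller).

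Between 1337404 and 2659644 reads per deletion library were counted on genes (median 1649954), against 1578511 to 2126622 per wild-type library (median 1869959). A value of 0 allows up to 3 reads, or 0.893 to 2.54 CPM (reads scaled to the library's total) depending on the library, which covers counting error only. The deleted gene itself read below every wild-type library in 26 strains, overlapped them in 54 and was above them in 14. Reads from a 3′ end may fall outside the deleted reading frame, so this is no clear check of the labels. Of the 12 strains described singly, *mcl1*Δ, *tcg1*Δ and *cay1*Δ read below wild type at the deleted gene, and *swd3*Δ, *ada2*Δ, *lem2*Δ and *amo1*Δ above it. The libraries labelled *erg4*Δ went against their label. In them *erg4* had 144 to 228 CPM, which overlapped wild type (184 to 232 CPM). *tcg1* had 75.1 to 218 CPM in them, against 560 to 927 CPM in wild type and 48.9 to 63.8 CPM in *tcg1*Δ. Whether they and the *tcg1*Δ libraries come from separate strains was not tested, so results shared by both sets may not be independent. Nothing in the labels says that replicates came from separate cultures, although the study calls them biological replicates. The p-values measure the spread between libraries, which may be technical in part.

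The subtelomeres of fission yeast lie next to the telomere repeats and carry long stretches that are near-identical between chromosome ends. Heterochromatin marked by methylation of histone H3 lysine 9 covers the part nearest the telomere, and condensed chromatin reaches further inward. Many genes in these regions encode transporters, permeases and enzymes of nutrient use, and many are expressed only under starvation or other stress.

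Because of these copies, a read near a gene's end may not show which copy it came from, and coding sequences near the stop codon, from the RefSeq assembly ASM294v3, illustrate it. Windows of 75 bases, the length of the reads, were searched across the genome, and in 57 of the 138 genes less than 50% of the windows in the last 500 bases were unique. Sets are shown here in which the copies differ in none or few of 30 coding bases. Capitals mark bases that differ from the first sequence of the set. The fluoride export channel genes *fex1* (chrI:56180-56209, plus strand) and *fex2* (chrII:55850-55879, minus strand) end alike.
fex1: tggggtcatggttatactgaaaagtattag
fex2: tggggtcatggttatactgaaaagtattag

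*fex1* had a mean of 18.9 CPM in wild type and *fex2* 0.544 CPM. A cluster of 4 transporter genes at the left end of chromosome II was identical in the stretch shown (minus strand, chrII:91724-91753, chrII:94483-94512, chrII:97242-97271 and chrII:100001-100030).
SPBPB10D8.04c: tcgagtaaaaatttggttggtattatctga
SPBPB10D8.05c: tcgagtaaaaatttggttggtattatctga
SPBPB10D8.06c: tcgagtaaaaatttggttggtattatctga
SPBPB10D8.07c: tcgagtaaaaatttggttggtattatctga

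Of these 4, SPBPB10D8.04c held 4822 reads over all libraries, and the other 3 genes held 0. Of 4 genes annotated as L-asparaginase, an enzyme that splits asparagine, the pair SPAC977.12 (chrI:57533-57562, plus strand) and SPBPB8B6.05c (chrII:54497-54526, minus strand) differed at 4 of the 30 bases.
SPAC977.12: gatattgaagatctgttcagcattaaataa
SPBPB8B6.05c: gatatAgaagGtTtAttcagcattaaataa

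In wild type SPAC977.12 had a mean of 90.7 CPM and SPBPB8B6.05c 37.0 CPM. The other two L-asparaginase genes, SPBPB21E7.09 and SPAC186.03, had medians of 3.63 and 0 CPM. Where copies are identical, the gene that a read was given to, and so a value of 0 at the other copy, may be set by how the reads were counted, which is not given in the sources used here.

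In wild type most subtelomeric genes were near or below detection. A gene was taken as measured where at least 6 of the 8 wild-type libraries reached the floor, close to 1 CPM, that the study used as its cutoff. By this rule 50 of the 138 genes were measured, against 5532 of 7259 (76.2%) in the whole table. Further, 12 genes had no read in any library, and 45 had none in any wild-type library. The 5 highest in wild type were SPAC922.04, a gene of unknown function (1730 ± 163 CPM, SD, n = 8), *pho1*, the secreted acid phosphatase (1610 ± 372 CPM), *pho84*, a phosphate transporter (1120 ± 186 CPM), SPAC977.12 (90.7 ± 13.4 CPM) and *pfl8*, a cell surface glycoprotein (88.8 ± 24.2 CPM). The median over all subtelomeric genes of an end lay between 0.161 CPM at the left end of chromosome II and 1.22 CPM at the right end of chromosome I.

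**Figure D1:**
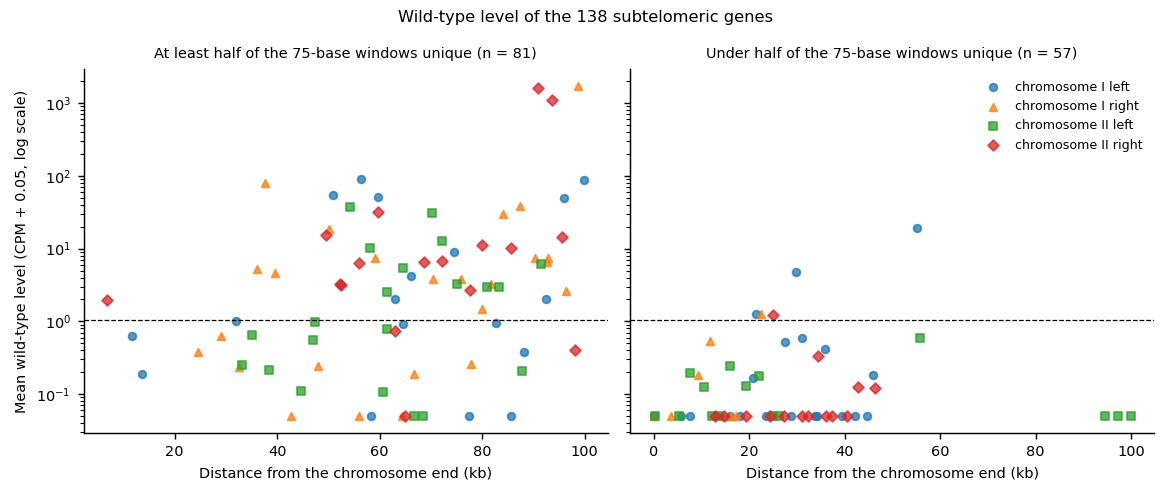
Mean wild-type level of each subtelomeric gene (CPM + 0.05, log axis, 8 libraries) against its distance from the chromosome end in kb, for genes with at least 50% (left) and under 50% (right) unique windows, with the floor as a dashed line. Genes nearest the end are mostly at or near 0, and SPAC922.04, *pho1* and *pho84* stand highest.

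The number of measured genes followed the distance from the end, and so did the share of unique sequence. Within 25 kb of an end 3 of 35 genes were measured (8.57%), between 25 and 50 kb 5 of 36 (13.9%), between 50 and 75 kb 21 of 34 (61.8%) and between 75 and 100 kb 21 of 33 (63.6%). Over the same steps 31, 21, 2 and 3 genes had less than 50% unique windows, so that distance and lost reads cannot be told apart in these counts. Among the genes with at least 50% unique windows, 1 of 4, 4 of 15, 20 of 32 and 21 of 30 were measured in the same order. Among protein-coding genes with at least 50% unique windows, 44 of 74 subtelomeric genes were measured (59.5%, median 3.1 CPM), against 4672 of 4948 elsewhere (94.4%, median 31.5 CPM).

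The limit of 100 kb fell between genes of very different levels, and the values on either side are given as a description. On chromosome I *pfl8*, just inside at the left end, had a median of 74.5 CPM over deletion libraries and 89.3 CPM over wild type, while *pdc101*, just outside, had 3590 CPM in deletion libraries and 4960 CPM in wild type. At the right end SPAC922.04 was just inside with medians of 1630 CPM in deletion libraries and 1790 CPM in wild type, and SPAC922.03 just outside with 8.49 CPM in deletion libraries and 8.22 CPM in wild type. On chromosome II SPBPB10D8.07c, inside at the left end, was at 0 in all libraries, and SPBC359.01, outside, had 11.3 CPM in deletion libraries and 10.3 CPM in wild type. At the right end *ecl3*, inside, had 0 CPM in deletion libraries and 0.291 CPM in wild type, and SPBC8E4.03, outside, had 59.5 CPM in deletion libraries and 63.6 CPM in wild type.

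To see how these genes responded to the deletions, a limma fit was made for each strain and wild type over all genes measured in both, and calls required p of 0.005 or less and a log2 fold change of 0.6 or more in either direction. Over the 94 comparisons 289 of 4430 tests of subtelomeric genes were called higher (6.52%) and 221 lower (4.99%). Over all genes 2.1% of the tests were called higher and 1.47% lower. At an adjusted p below 0.05 (Benjamini-Hochberg over all genes of a strain), 186 tests of subtelomeric genes were higher and 176 lower. In total 510 tests were called (11.5%). The share called among subtelomeric genes was above that among all genes in 81 of the 94 strains. Without the first replicate of each strain 170 tests were called higher, and with the wild type of well A2 alone 178 were.

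The calls ran in both directions and were spread over strains. At least 1 subtelomeric gene was called in 85 strains, with a median of 4.5 genes per strain and at most 21. Of the 50 genes tested, 46 were called in at least 1 strain, of which 26 were higher in some strains and lower in others, 15 only higher and 5 only lower. The 15 include genes close to the floor in wild type, such as *pcm2*, SPBCPT2R1.04c and SPAC212.04c. Such genes leave the fit where they fall, so lower calls of them were hardly possible. The other 88 genes were never tested, since they were not measured in wild type. The median log2 fold change was 0.06 over tests of subtelomeric genes, against 0.01 over all tests. Between the wild-type wells A1 and A2, limma called 0 of 48 subtelomeric genes, with 1 at an unadjusted p below 0.05, and 9 of 5484 genes in all (0.164%).

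**Figure D2:**
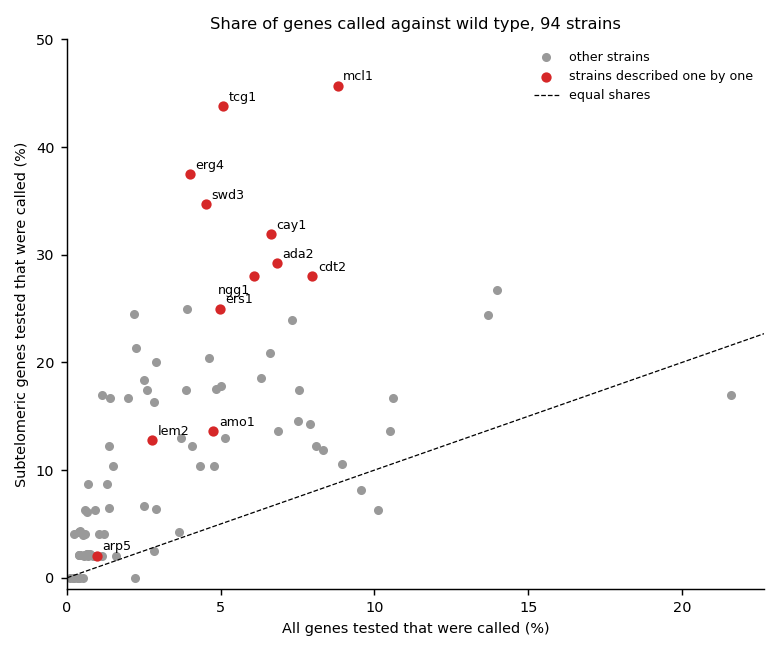
Percentage of tested subtelomeric genes called altered in each of the 94 strains against the percentage of all tested genes called. Most strains lie above the line of equal shares, and *mcl1*Δ is highest at 45.7%.

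All 4 chromosome ends contributed calls. At the left end of chromosome I 46 tests were higher and 32 lower (8.02% of 972 tests), and at its right end 82 and 55 (10.7% of 1283). At the left end of chromosome II 62 were higher and 43 lower (11.9% of 881), and at the right end 99 and 91 (14.7% of 1294). By distance, 20.9% of 153 tests were called within 25 kb, 10.9% of 460 between 25 and 50 kb, 11.2% of 1945 between 50 and 75 kb and 11.3% of 1872 between 75 and 100 kb. The first of these shares rests on 3 genes, *tlh2* (82.9% unique windows), SPBCPT2R1.04c (17.6%) and SPAC212.04c (16.4%).

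By annotated function, enzymes made up the largest class with calls. Of 44 enzyme genes, 23 were measured in wild type, and 150 of their tests were higher and 118 lower (13.0% of 2054). Of 23 transporter and permease genes 11 were measured, with 57 tests higher and 42 lower (9.71% of 1020). Of 62 genes not annotated as an enzyme or a transporter 13 were measured, with 66 higher and 39 lower (9.38% of 1119), and 1 of the higher and 19 of the lower tests were of *gdt1*, annotated as a GDT1-like protein. The 6 cell surface glycoprotein genes gave 14 higher and 14 lower (15.1% of 185), all from *pfl8* and *pfl9*. The 3 helicase genes gave 2 higher and 8 lower (19.2% of 52), all from *tlh2*.

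Sequence shared between copies and overlap with another gene were counted beside these results. Genes with at least 50% unique windows gave 265 higher and 219 lower calls (11.7% of 4141 tests), and those below gave 24 and 2 (9.0% of 289). Of the 24, 15 were of SPBCPT2R1.04c and 7 of SPAC212.04c, both close to the floor in wild type. Among the 138 genes 32 overlapped another gene, and without them 179 tests were higher and 168 lower (14.3% of 2434). Whether the counting used the strand is not stated, so the reads of overlapping genes on opposite strands cannot be told apart.

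In *mcl1*Δ 4 of 46 tested subtelomeric genes were higher and 17 lower, and the median log2 fold change was −0.55. Over all genes of this strain 5.09% were higher and 3.71% lower. All 21 passed the adjusted p. At the right end of chromosome I 0 of 13 were higher and 7 lower, and of 11 transporters 0 were higher and 3 lower. Without the second replicate of *mcl1*Δ 12 genes were called, and 11 without the third or when overlapping genes were left out.

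The smallest p among them belonged to *aes1* (SPBPB21E7.07, II 70156 to 71310 in ASM294v2, the build of the deposited coordinates), annotated as a phenazine biosynthesis family protein. It had 7.31, 8.93, 9.72 and 6.48 CPM in *mcl1*Δ, against 23.1 to 35.9 CPM in wild type (median 31.4), and the groups did not overlap (log2 fold change −1.94 ± 0.15 SE, adjusted p = 1.18e-05). *gdt1* (I 5540032 to 5541502) encodes a GDT1-like protein, a family with roles in Golgi calcium and manganese transport in budding yeast. It had 32.1, 23.1, 26.1 and 17.6 CPM in *mcl1*Δ, against 59.8 to 93.8 CPM in wild type (median 79.1), again without overlap (−1.70 ± 0.17, adjusted p = 6.38e-05). *cat1* (I 5489134 to 5491791), the plasma membrane transporter of arginine and lysine, was the next. It had 11.8, 17.9, 14.8 and 16.2 CPM in *mcl1*Δ, against 27.3 to 54.2 CPM in wild type (median 37.9; −1.33 ± 0.19, adjusted p = 0.000586). The phosphate genes were lower as well, with log2 fold changes of −1.42 ± 0.21 for *pho1* and −1.27 ± 0.21 for *pho84*. Higher in *mcl1*Δ were SPBCPT2R1.04c (0.99 ± 0.23), SPAC212.04c (0.62 ± 0.17) and the galactose genes *gal10* and *gal7*.

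*tcg1*Δ had mostly higher calls, with 17 of 48 genes higher and 4 lower and a median of 0.78. Over all genes 3.60% were higher and 1.48% lower, and 20 subtelomeric genes passed the adjusted p. At the right end of chromosome II 7 of 14 were higher and 0 lower, and of 23 enzymes 11 were higher and 2 lower. The libraries labelled *erg4*Δ had 15 of 48 higher and 3 lower, with a median of 0.64, where 2.66% of all genes were higher and 1.34% lower, and 16 passed the adjusted p. Without overlapping genes 11 were called in each.

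The gene with the smallest p in both was *nrg1* (SPBPB2B2.01, II 4457661 to 4459842), an amino acid permease. It had 405.0, 290, 302 and 225 CPM in *tcg1*Δ, 358, 277, 271 and 138 CPM in the libraries labelled *erg4*Δ, and 5.83 to 23 CPM in wild type (median 9.81). Every library of both was above all of wild type, with log2 fold changes of 4.89 ± 0.32 (adjusted p = 8.28e-07) in *tcg1*Δ and 4.62 ± 0.35 (adjusted p = 7.54e-06) in the libraries labelled *erg4*Δ. Next came SPBPB10D8.02c (II 83229 to 85631), annotated as arylsulfatase, an enzyme that frees sulfate from its esters. It had 63.0, 53.2, 42.6 and 29.7 CPM in *tcg1*Δ, 38.9, 44.6, 23.9 and 23.1 CPM in the libraries labelled *erg4*Δ, and 1.51 to 4.23 CPM in wild type (median 3.05), with log2 fold changes of 4.03 ± 0.28 and 3.50 ± 0.28.

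Of 11 transporters and permeases 5 were higher and 1 lower, both in *tcg1*Δ and in the libraries labelled *erg4*Δ. SPBPB10D8.01 (II 80899 to 83357), a cysteine transporter, had 33.4, 39.7, 31.4 and 53.8 CPM in *tcg1*Δ, 33.5, 30.6, 17 and 33.1 CPM in the libraries labelled *erg4*Δ, and 1.15 to 5.64 CPM in wild type (median 2.72). Its log2 fold changes were 3.92 ± 0.39 (adjusted p = 3.77e-05) and 3.43 ± 0.40 (adjusted p = 0.000238). This gene overlaps SPBPB10D8.02c, so the pair may share reads. *sul2* (I 5505583 to 5508782), a sulfate transporter, had 66.2, 32.6, 16.1 and 27.8 CPM in *tcg1*Δ, against 0 to 6.35 CPM in wild type (median 3.95). Its log2 fold change was 2.92 ± 0.32 (adjusted p = 0.000154), and the wild-type library at 0 was dropped from the fit. *put4*, a proline transporter, was higher in *tcg1*Δ (2.32 ± 0.34, adjusted p = 0.000947) and in the libraries labelled *erg4*Δ (2.1 ± 0.36, adjusted p = 0.00587). In the opposite direction, *cat1* had 10.9, 8.51, 6.99 and 9.9 CPM in *tcg1*Δ (−2.08 ± 0.19, adjusted p = 1.89e-05) and 13.4, 10.6, 17.7 and 15.6 CPM in the libraries labelled *erg4*Δ (−1.42 ± 0.19), below all of wild type. The L-asparaginase genes went both ways in *tcg1*Δ, with log2 fold changes of −0.89 ± 0.17 for SPAC977.12 and −0.94 ± 0.21 for SPBPB8B6.05c, and of 1.32 ± 0.20 for SPBPB21E7.09 (adjusted p = 0.00195).

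**Figure D3:**
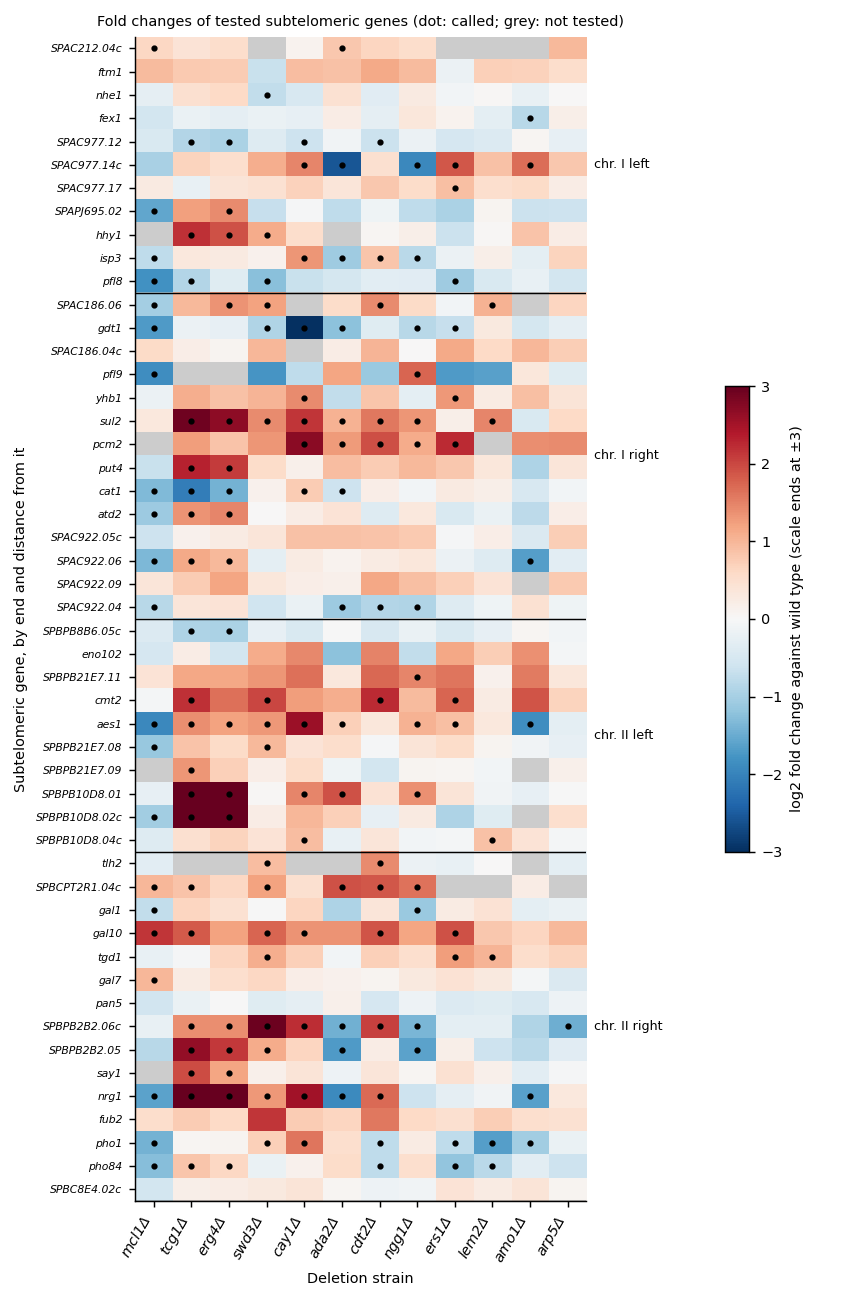
Log2 fold change against wild type of the 50 subtelomeric genes tested (down the page, by end) in the 12 strains (across), with 4 libraries per strain and 8 for wild type. Dots mark called changes, grey marks genes not tested, the colour scale ends at 3 in either direction, and the column erg4Δ is the libraries of that label. *nrg1* has the highest value, 4.89 in *tcg1*Δ, and *gdt1* the lowest, −3.25 in *cay1*Δ.

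In *swd3*Δ 14 of 49 genes were higher and 3 lower, with a median of 0.42, where 3.49% of all genes were higher and 1.04% lower. Only 8 passed the adjusted p. At the right end of chromosome II 8 of 15 were higher and 0 lower, and of 23 enzymes 9 were higher and 0 lower. Without the first replicate 6 genes were called and without the second 8, and with the wild type of well A1 or A2 alone 10 or 8. SPBPB2B2.06c (II 4469018 to 4471207), annotated as a phosphoprotein phosphatase, had 53.6, 69.6, 27.5 and 47.9 CPM in *swd3*Δ, against 3.03 to 9.41 CPM in wild type (median 6.75). The groups were far apart (2.95 ± 0.32, adjusted p = 0.000316). *aes1* was higher, with 107, 83.5, 64.3 and 55.0 CPM in *swd3*Δ (1.29 ± 0.18, adjusted p = 0.00263), and *gdt1* lower, with 40.2, 53.4, 45.0 and 32.1 CPM (−0.91 ± 0.16, adjusted p = 0.0101).

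*cay1*Δ had 13 of 47 genes higher and 2 lower, with a median of 0.64, and 14 passed the adjusted p. Over all genes 5.21% were higher and 1.42% lower. Of 11 transporters 5 were higher and 0 lower. *aes1* had 199, 144, 156 and 238 CPM in *cay1*Δ, against 23.1 to 35.9 CPM in wild type (2.56 ± 0.16, adjusted p = 9.77e-07). *gdt1* had 4.37, 11.2, 13.0 and 7.33 CPM in *cay1*Δ, against 59.8 to 93.8 CPM in wild type (−3.25 ± 0.24, adjusted p = 3.38e-06). Both sets of libraries were clear of wild type. *sul2* had 18.7, 17.1, 23.2 and 15.3 CPM in *cay1*Δ (2.14 ± 0.20, adjusted p = 4.68e-05). *pho1* (II 4446373 to 4449053) had 5700, 5010, 3750 and 4700 CPM in *cay1*Δ, against 1160 to 2090 CPM in wild type (median 1670; 1.59 ± 0.19, adjusted p = 0.000224). With the wild type of well A2 alone 9 genes were called.

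Among strains that lack a SAGA subunit, *ada2*Δ and *ngg1*Δ gave calls in both directions. *ada2*Δ had 6 of 48 higher and 8 lower with a median of 0.19, where 3.72% of all genes were higher and 3.1% lower, and all 14 passed the adjusted p. *ngg1*Δ had 7 of 50 higher and 7 lower with a median of 0.27, where 3.63% were higher and 2.44% lower, and 11 passed. SPAC922.04 (I 5479853 to 5480485), the most abundant subtelomeric transcript in wild type, had 819, 936, 859 and 636 CPM in *ada2*Δ and 916, 1070, 940 and 761 CPM in *ngg1*Δ, against 1470 to 1870 CPM in wild type (median 1790). Neither strain overlapped wild type (−1.10 ± 0.13, adjusted p = 0.000268 in *ada2*Δ and −0.91 ± 0.12, adjusted p = 0.000753 in *ngg1*Δ). SPAC977.14c (I 59614 to 60907), an aldo-keto reductase family gene, had 10.6, 9.87, 13.5 and 2.69 CPM in *ada2*Δ and 11.8, 14.3, 14.3 and 9.25 CPM in *ngg1*Δ, against 25.9 to 83.7 CPM in wild type (median 46.4). Its log2 fold changes were −2.58 ± 0.42 (adjusted p = 0.00234) and −1.94 ± 0.30 (adjusted p = 0.00215). *gdt1* was lower in both strains, at −1.23 ± 0.14 in *ada2*Δ and −0.84 ± 0.13 in *ngg1*Δ. Of 3 other SAGA strains, *gcn5*Δ had 4 of 46 subtelomeric genes higher and 4 lower, where 7.55% of all genes were called, while *spt7*Δ had 0 of 47 higher and 1 lower (0.643% of all genes called) and *spt8*Δ 0 of 47 higher and 2 lower (0.402%).

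The counts in these strains fell in some fits with libraries left out. Such fits also rest on fewer libraries, and whether single libraries account for the fall was not tested. Without the second replicate 7 genes were called in *ada2*Δ and 8 in *ngg1*Δ, and without the third 9 in *ada2*Δ. In *ngg1*Δ 9 were called without the A2 wild-type library of replicate 3. With the floor taken on the log2 scale 9 genes were called in each, and with the wild type of well A2 alone 7 in *ada2*Δ.

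*cdt2*Δ had 10 of 50 genes higher and 4 lower, with a median of 0.37, and all 14 passed the adjusted p. Over all genes 5.82% were higher and 2.16% lower. A pair of genes at 25 kb or less from the end were among the calls. SPBCPT2R1.04c (II 4513401 to 4514815), an uncharacterised gene with 17.6% unique windows, had 4.6, 5.04, 4.78 and 5.97 CPM in *cdt2*Δ, against 0 to 2.27 CPM in wild type (median 1.22). The groups did not overlap, and the log2 fold change was 1.86 ± 0.19 (adjusted p = 0.000168), with the 2 wild-type libraries under the floor dropped. *tlh2* (II 4526885 to 4532899), a RecQ-type helicase gene, had 6.65, 5.04, 7.97 and 6.47 CPM in *cdt2*Δ, against 0 to 3.59 CPM in wild type (median 2.29; 1.42 ± 0.19, adjusted p = 0.000925, again with 2 wild-type libraries dropped). SPBPB2B2.06c had 23, 35.3, 19.7 and 25.9 CPM in *cdt2*Δ (2.06 ± 0.29, adjusted p = 0.000771). Without the first replicate of *cdt2*Δ 4 genes were called, with the wild type of well A2 alone 7, and 9 when values with an uncertain decimal point were removed.

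**Figure D4:**
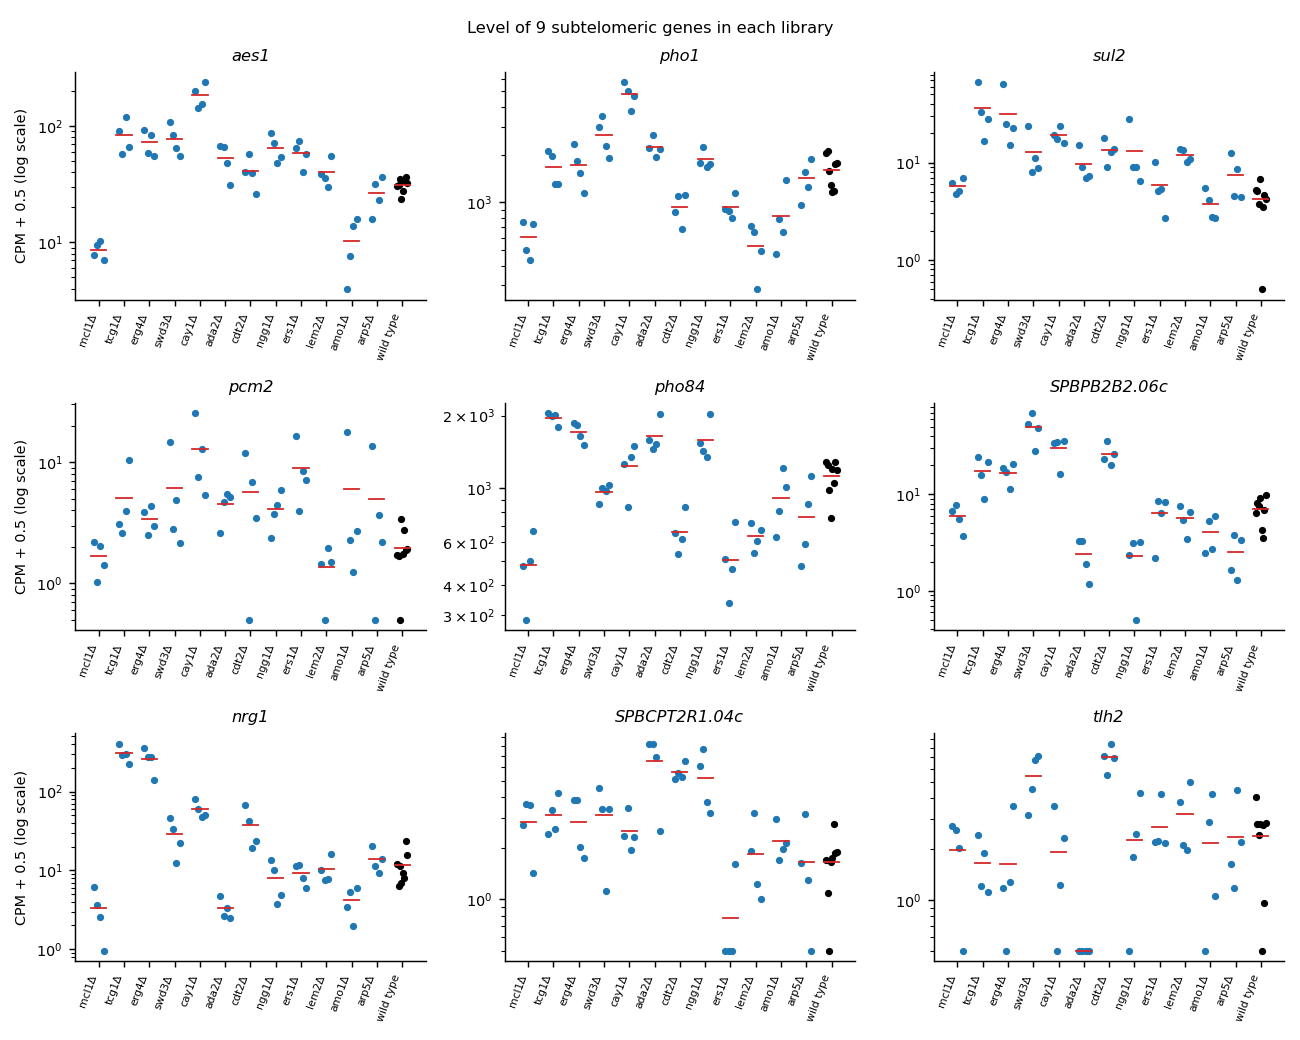
CPM + 0.5 (log axis) of 9 subtelomeric genes, with a point for each library and a bar for the mean, in the 12 strains (blue, 4 libraries each) and wild type (black, 8 libraries). *nrg1* in *tcg1*Δ (225 CPM or more) and *aes1* in *cay1*Δ (144 CPM or more) lie above all wild-type libraries.

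In *ers1*Δ 8 of 48 genes were higher and 4 lower, with a median of 0.09, where 3.68% of all genes were higher and 1.29% lower, and 10 passed the adjusted p. SPAC977.14c had 204, 196, 183 and 114 CPM in *ers1*Δ, against 25.9 to 83.7 CPM in wild type (1.86 ± 0.31, adjusted p = 0.00466), above every wild-type library. *pho84* (II 4444125 to 4446200) had 511, 335, 463 and 723 CPM in *ers1*Δ, against 754 to 1280 CPM in wild type (median 1200; −1.18 ± 0.20, adjusted p = 0.0053), below every one. *pcm2* (I 5497918 to 5499280), a methyltransferase that acts on damaged aspartyl residues in proteins, had 15.8, 3.49, 7.99 and 6.67 CPM in *ers1*Δ, against 0 to 2.89 CPM in wild type (median 1.31; 2.24 ± 0.37, adjusted p = 0.00541, with the library at 0 dropped). With the wild type of well A2 alone, or without overlapping genes, 6 genes were called.

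The nuclear membrane strains had fewer calls. *lem2*Δ had 4 of 47 higher and 2 lower with a median of 0.15, where 2.1% of all genes were higher and 0.694% lower, and 5 passed the adjusted p. The deleted gene itself read 154 to 258 CPM in *lem2*Δ, against 27.3 to 40.7 CPM in wild type. *sul2* had 13.3, 13.0, 9.58 and 10.5 CPM in *lem2*Δ, against 0 to 6.35 CPM in wild type (1.47 ± 0.20, adjusted p = 0.0018), and *pho1* had 704, 649, 283 and 493 CPM, against 1160 to 2090 CPM in wild type (−1.64 ± 0.25, adjusted p = 0.00234). Neither overlapped wild type. *pho84* was lower as well (−0.81 ± 0.16, adjusted p = 0.0205).

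*amo1*Δ had 1 of 44 higher and 5 lower with a median of −0.17, where 1.73% of all genes were higher and 3.03% lower, and all 6 passed the adjusted p. *aes1* had 3.44, 7.18, 13.4 and 15.3 CPM in *amo1*Δ, below all of wild type (−1.86 ± 0.31, adjusted p = 0.00954). SPAC922.06 (I 5485096 to 5486287), annotated as a 3-oxoacyl-ACP reductase of fatty acid synthesis, had 3.93, 1.79, 3.73 and 1.1 CPM in *amo1*Δ, against 4.49 to 9.24 CPM in wild type (median 8.42; −1.65 ± 0.32, adjusted p = 0.0186). SPAC977.14c had 276, 163, 148 and 76.2 CPM in *amo1*Δ and was the only gene called higher (1.68 ± 0.36, adjusted p = 0.0247), and 1 of its 4 libraries fell within the wild-type range. That library was of replicate 4. The level of SPAC977.14c differed between replicate numbers, with medians of 87.3, 85.1, 74.7 and 36.3 CPM over the libraries of replicate 1 to 4. Without the floor 10 genes were called, and with the wild type of well A2 alone 3.

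In *arp5*Δ 0 of 49 genes were higher and 1 lower, with a median of 0.08, where 0.820% of all genes were higher and 0.164% lower. No gene passed the adjusted p, and 6 higher and 2 lower had an unadjusted p below 0.05. The call was SPBPB2B2.06c, with 1.13, 3.34, 0.8 and 2.84 CPM in *arp5*Δ (−1.46 ± 0.39, adjusted p = 0.394), where the library under the floor was dropped and 1 library fell within the wild-type range. The count was 0 without the first replicate and 4 without the fourth, 2 without either A2 wild-type library of replicate 2, and 0 with the wild type of either well alone.

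Across all strains the calls were concentrated in a few genes, and 6 of them held 34.1% of the calls. *aes1* was higher in 14 and lower in 29 strains, with the lowest log2 fold change of −3.17 ± 0.35 in the strain deleted for SPBC16A3.17c (adjusted p = 5.4e-05). *pho1* was higher in 10 and lower in 32, lowest in *rpp102*Δ, which lacks a ribosomal protein of the stalk (−1.75 ± 0.24, adjusted p = 0.00193). *pho84*, its neighbour, was higher in 4 and lower in 18, with values from −1.37 ± 0.23 in *imp1*Δ (adjusted p = 0.0356) to 1.00 ± 0.17 in *ath1*Δ (adjusted p = 0.0154). *sul2* was higher in 20 strains and lower in 4, lowest in *rpl3801*Δ (−1.27 ± 0.27, adjusted p = 0.0123). *pcm2* was higher in 22 of the 79 strains where it was tested and lower in 0, highest in *cay1*Δ (2.71 ± 0.40, adjusted p = 0.00156). Its wild-type median of 1.31 CPM was close to the floor, and in 15 strains it was measured in wild type only and left the fit. A lower call was therefore hardly possible, and the counts do not show a direction for *pcm2*. SPBPB2B2.06c was higher in 10 and lower in 11, lowest in *rpp102*Δ (−1.86 ± 0.33, adjusted p = 0.00678).

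Since ribosomal protein strains stood at the low end for several of these genes, the counts were split between the 19 strains with a ribosomal protein gene deleted and the other 75, a split made after the values were seen and given without a test. Over all genes 3.08% of the tests were higher and 2.54% lower in the ribosomal protein strains, against 1.85% higher and 1.19% lower in the others. *aes1* was lower in 14 of the 19 and in 15 of the 75, and higher in 0 of the 19 and 14 of the 75. *pho1* was lower in 11 of the 19 and in 21 of the 75, and higher in 0 of the 19 and 10 of the 75. SPBPB2B2.06c was lower in 5 ribosomal protein strains and 6 others, and higher in 0 ribosomal protein strains and 10 others. *sul2* was lower in 2 of each kind, and higher in 0 ribosomal protein strains and 20 others. *pho84* was lower in 4 ribosomal protein strains and 14 others. *pcm2* was higher in 3 of 13 ribosomal protein strains where it was tested and in 19 of 66 others.

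Among the deletion strains 1 lacked a subtelomeric gene, SPBPB10D8.06c of the transporter cluster shown above. Of this cluster SPBPB10D8.04c alone had reads, and 61.3% of its windows were unique. It had 9.18, 11.2, 11.5 and 5.36 CPM in this strain, against 3.76 to 8.16 CPM in wild type (median 5.88). The groups overlapped, and the log2 fold change was 0.59 ± 0.24 (adjusted p = 0.933). SPBPB10D8.06c itself was at 0 in all libraries, so the deletion cannot be seen in its own counts.

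Genes of sugar and iron uptake, the galactose genes and the telomeric helicases were examined singly in the 12 strains, also where they were too low for the fit. Exact permutation tests of 4 against 8 libraries (two-sided, difference of mean log2(CPM + 1), smallest possible p 0.00202) were run in 74 cases, and 29 passed an adjusted p of 0.05. Leaving out 1 library from every strain left 0 to 22 cases, depending on the replicate, with 9 without the first, 0 without the third and 10 without the fourth. Differences below are on this log2 scale, which understates the change of low genes.

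*ght3* (I 82746 to 84786), a gluconate:proton symporter, had 0 to 1.92 CPM in wild type (median 0.69). It was higher in 8 of the 12 strains. In *mcl1*Δ it had 43.9, 9.98, 9.72 and 7.4 CPM (difference 3.01, adjusted p = 0.0187, exact permutation test), and in *ngg1*Δ 9.92, 3.9, 22.8 and 14.7 CPM (2.72). The differences in the others were 2.49 in *cdt2*Δ, 2.21 in *ada2*Δ, 2.18 in *swd3*Δ, 1.83 in *cay1*Δ, 1.77 in *ers1*Δ and 1.41 in *arp5*Δ. *str3* (I 88201 to 90300), a siderophore-iron transporter, was at 0 in 6 of the 8 wild-type libraries and at most 1.84 CPM. It was higher in 7 strains, with 12.8, 3.36, 9.03 and 17.4 CPM in *cdt2*Δ (3.07, adjusted p = 0.0187, exact permutation test). The other 6 differences included 1.98 in *ngg1*Δ, 1.84 in *tcg1*Δ and 1.43 in the libraries labelled *erg4*Δ.

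The galactose genes lie side by side at the right end of chromosome II, and their products turn galactose into a form that enters glycolysis. *gal10*, the epimerase (II 4484023 to 4487569), had 16.9, 15.8, 10.7 and 7.4 CPM in *mcl1*Δ, against 1.2 to 9.24 CPM in wild type (median 2.65). It was higher in 7 strains, by 1.78 in *mcl1*Δ, 1.55 in *ers1*Δ, 1.54 in *cdt2*Δ, 1.49 in *tcg1*Δ, 1.41 in *swd3*Δ and 1.06 in *cay1*Δ, and also in *ada2*Δ. The kinase gene *gal1* (II 4488322 to 4490271) was called in both directions. It had 7.44, 5.85, 7.17 and 7.07 CPM in *ngg1*Δ, all below the wild-type libraries (median 14.4, highest 22.5 CPM; −1.02, adjusted p = 0.0187, exact permutation test). It was also lower in *ada2*Δ (−0.83) and *mcl1*Δ (−0.68), and higher in *tcg1*Δ (0.62). *gal7*, the transferase (II 4482234 to 4483799), passed the test in *mcl1*Δ alone, with 11.2, 14.2, 16.4 and 7.86 CPM, against 3.76 to 10.5 CPM in wild type (median 5.25; 0.89, adjusted p = 0.0412, exact permutation test). All 3 overlap another gene.

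The helicase gene *tlh1* lies at the left end of chromosome I and *tlh2* at the right end of chromosome II. Of the windows of *tlh1* 98.7% also occur in *tlh2*. *tlh1* is on the minus strand, and its 3′ side reaches the first base of the assembled chromosome I. Whether part of its 3′ end, and the reads from it, is missing from the assembly was not tested. *tlh1* had a single nonzero value in *mcl1*Δ (0.562 CPM) and in *ers1*Δ (0.556 CPM) and was at 0 in wild type. *tlh2* was higher in *cdt2*Δ (1.5, adjusted p = 0.0187, exact permutation test) and lower in *ada2*Δ (−1.40, adjusted p = 0.0311), where all 4 libraries were at 0. In *swd3*Δ it had 2.68, 4.06, 6.25 and 6.67 CPM and a limma log2 fold change of 0.93 ± 0.26, with an adjusted p of 0.0858.

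Genes outside the fit were described by whether they reached the floor. Of the 88 genes not measured in wild type, 32 were measured in at least 1 strain (3 of 4 libraries), which gave 615 of 8272 gene and strain pairs (7.43%), against 9.86% over all genes. In the reverse direction 270 of 4700 pairs (5.74%) of 23 genes were measured in wild type and not in the strain, against 1.06% over all genes. These shares were not matched for level, and a gene close to the floor in wild type falls under it more readily. Of the 270 pairs, 48 were of SPBCPT2R1.04c, 42 of *tlh2* and 39 of SPAC212.04c. Leaving out 1 library changes how many must reach the floor, and the first count then ran from 303 without the first replicate of each strain to 1038 without the A2 wild-type library of replicate 4, the second from 129 without that wild-type library to 724 without the first replicate. At least 1 gene was measured only in the strain in all 94 comparisons, with the most, 15 each, in *cdt2*Δ, *mhf2*Δ and *ssz1*Δ. The share over all genes was not taken strain by strain, so these counts do not show a trait of subtelomeric genes in those strains.

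The genes measured only in the strain in most comparisons, named after their values were seen except for *ght3* and *str3*, were SPAC977.15, a dienelactone hydrolase family gene (81 strains), *hry1* and SPAC869.09 (71 each), *ght3* (52), SPAC750.01 (51), *dak2*, a dihydroxyacetone kinase gene (44), *ftm2* (38), *grt1*, a transcription factor gene (33), and *str3* (30). The first of these were close to the floor in wild type rather than absent. SPAC977.15 had a median of 2.96 CPM over deletion libraries and 1.74 CPM over wild type, *hry1* 4.74 CPM in deletion libraries and 2.99 CPM in wild type (up to 10.6), and SPAC869.09 5.33 CPM in deletion libraries and 3.1 CPM in wild type (up to 7.05). Single strains reached higher means for some of the others. *dak2* averaged 55.3 CPM in *pdc2*Δ (6.09 to 114), against 0 to 1.87 CPM in wild type. *ght3* averaged 43.1 CPM in the same strain (7.11 to 72.7), against 0 to 1.92 CPM in wild type. *grt1* averaged 12.0 CPM in *gcn5*Δ (10.9 to 14.6), against 0 to 3.22 CPM in wild type. The genes that most often reached the floor in wild type and not in the strain were SPBCPT2R1.04c (48 strains), *tlh2* (42) and SPAC212.04c (39), the 3 measured genes at 25 kb or less from an end. SPBCPT2R1.04c had a median of 1.28 CPM over deletion libraries and 1.22 CPM over wild type, and SPAC212.04c 1.43 CPM in deletion libraries and 1.46 CPM in wild type, close to the floor in both. Where they could be fitted, SPBCPT2R1.04c was called higher in 15 of 46 strains and lower in 0, and SPAC212.04c higher in 7 of 55 and lower in 0. Strains where these genes fell under the floor left the fit, so lower calls were hardly possible. The counts therefore do not show a direction for these genes. *tlh2* had 1.29 CPM in deletion libraries and 2.29 CPM in wild type, and was called higher in 2 strains and lower in 8.

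Some subtelomeric genes also differed between the replicate numbers, each of which covers a set of wells, while no label says what else its libraries shared. Of the 41 subtelomeric genes with a median of at least 2 CPM at every replicate number, 8 (19.5%) had medians that spanned more than 1 on the log2 scale, against 158 of 5364 genes in all (2.95%). The median span was 0.54 in subtelomeric genes, against 0.33 in all genes. The 8 were *eno102*, *pfl9*, *cmt2*, SPAC186.06, SPAC977.14c, *pfl8*, *put4* and *ftm1*. *hry1* (I 5502560 to 5503291), an HHE domain gene, had medians of 5.65, 0, 11.5 and 5.0 CPM over the libraries of replicate 1 to 4, and SPAC869.09 (I 5496844 to 5497448), a Con-6 family gene, 7.96, 0.638, 10.0 and 5.56 CPM. Both were lowest in replicate 2, where they were under 2 CPM, so they are not among the 8. *eno102* (II 58136 to 59704), an enolase gene, had 13.6, 2.55, 20.7 and 18.1 CPM, also lowest there. SPBPB21E7.11 (II 61526 to 63086), of unknown function, had 4.65, 1.41, 5.11 and 5.3 CPM and is not among the 8 either. *pfl9* (I 5527462 to 5528959) was instead highest in replicate 4, with 8.5, 6.23, 11.9 and 37.2 CPM. The part of the replicate number in the strain counts of *hry1* and SPAC869.09 was not tested.

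**Figure D5:**
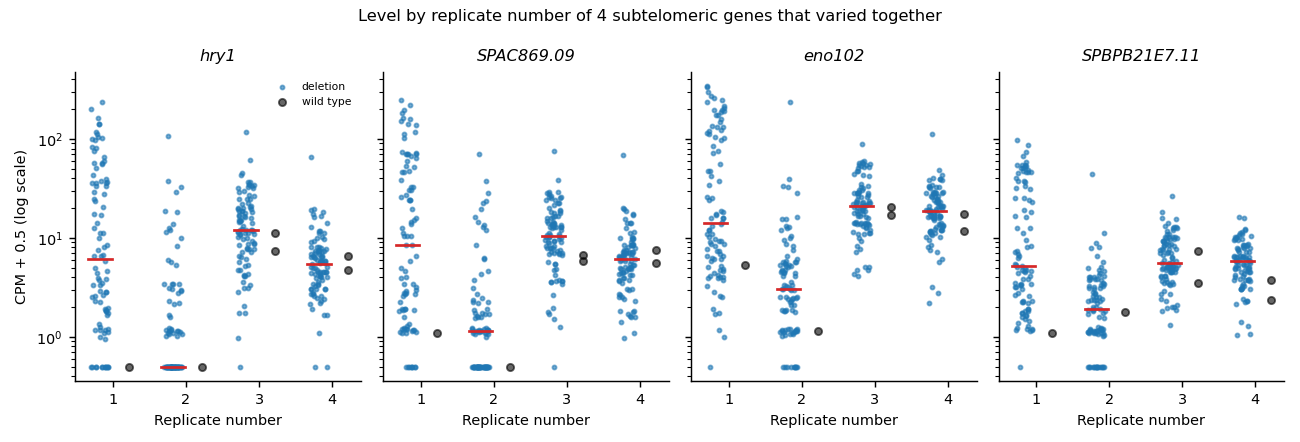
CPM + 0.5 (log axis) of *hry1*, SPAC869.09, *eno102* and SPBPB21E7.11 in each deletion library (blue, with the median as a bar) and each wild-type library with an unambiguous number (black), by replicate number. All 4 genes are lowest in replicate 2, where the median of *hry1* is 0.

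With the median of each replicate number subtracted, a few subtelomeric genes varied together over the 94 strains. Among 60 genes with enough reads the median Pearson r of the 1770 pairs was 0.09, and it was 0.18 for the 124 pairs within 10 kb of each other and 0.08 for the other 1646. An r of at least 0.7 was reached by 14 pairs. The highest was 0.93 between *hry1* and SPAC869.09, which are 5112 bases apart, and within single replicate numbers it ran between 0.73 and 0.97. *eno102*, on the other chromosome, had r of 0.82 with *hry1* and 0.83 with SPAC869.09, and SPBPB21E7.11, which lies 1822 bases from *eno102*, had 0.79 and 0.80. These points share the libraries of their strains and their depth, and the genes were picked after their values were seen. Beside them, the L-asparaginase genes SPAC977.12 and SPBPB8B6.05c reached 0.73, *pfl8* and *pfl9* 0.73, and *nrg1* and SPBPB2B2.05, a glutamine amidotransferase family gene 6675 bases away, 0.77. The L-asparaginase pair are copies, with 67.2% of the windows of SPAC977.12 and 73.0% of those of SPBPB8B6.05c shared. The part of shared reads in their r was not tested.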

How the data were processed

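RNA of 94 deletion strains (4 libraries each) and of wild type (8 libraries) was read from its 3′ ends. The submitters' processing notes list STAR 2.6.1b, Subread 1.6.2, SAMtools 1.5, HTSeq 0.9.0 and the build ASM294v2. Which of the tools counted the reads, and whether strand was used, is not given in the sources used here.

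The deposited values were CPM in which every number of 1 or more had lost its decimal point, a unit that fits no usual class and is recorded here as other. CPM had been computed by the authors from the reads on genes. Since a value is a whole multiple of 1 read, the point was restored from the value of 1 read in each library. Of 2787456 values 78.8% were restored and 0 remained unresolved. For 10.73%, the values with an uncertain decimal point, several positions were possible. The position was then chosen mainly by closeness to the other libraries of the same strain, which can draw replicates together. For 0.062% the second position was less than 10 times less probable than the first. On simulated libraries 0.046% were restored wrongly. No column of values was left unused.

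Genes were taken from the deposited coordinates, and names, types and sequences from RefSeq, where 137 of the 138 genes matched. Values under 1.006722 CPM were removed, genes were kept with 3 of 4 values in the strain and 6 of 8 in wild type, nothing was imputed, and each strain was fitted against wild type with limma 3.58.1 (R 4.3.3) on the log2 of CPM, and Python 3.11.15 served for the rest. Calls needed a log2 fold change of 0.6 in size and p of 0.005, beside an adjusted p of 0.05. On simulated data in 10 comparisons with 200 genes changed by 1.5 on the log2 scale, 98.2% of these were called, and 0.481% of the unchanged genes. The changed genes were drawn from those well above the floor in wild type. Every gene was given the same relative spread, with no effect of replicate number. The 98.2% therefore does not cover the lowest or most variable genes tested here. Single genes were compared by exact permutation tests on log2(CPM + 1).

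The tests had been planned for CPM and were run on the restored values. The genes, the lists and the strains were chosen with earlier results of these data known. Named were the 5 genes highest in wild type, the 6 called in most strains, up to 3 with the smallest p in each of 12 strains, and the helicase, galactose, sugar and iron transport genes and any deleted member. Replicate number 2 stands on 2 wild-type libraries of well A2, which were left out where replicate numbers were compared. Alternatives were another pseudocount or none of the floor, median centring, a replicate block, either wild-type well, the adjusted p, distance and overlap limits, and each library left out.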

Additional observations from a re-analysis of the deposited data

Results flagged for a closer look

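In 8 of 114 groups of libraries examined, the library at an extreme stood apart from the rest of its group by more than Dixon's limit, and chance alone gives about 1 in 20. In the deletion strains these were *ght3* in *mcl1*Δ replicate 1 at 43.9 CPM (the others 7.4 to 9.98), *tlh2* in *ers1*Δ replicate 3 at 3.73 CPM (1.67 to 1.74), *gal7* in *cay1*Δ replicate 3 at 3.62 CPM (8.26 to 8.75), and *gal10* in *swd3*Δ replicate 3 at 5.0 CPM (10.4 to 11.7). In the libraries labelled *erg4*Δ, SPBPB10D8.01 had 17 CPM in replicate 3 (30.6 to 33.5). In wild type they were *sul2* at 0.0 CPM in well A1 replicate 3 (3.03 to 6.35), *pcm2* at 0.0 CPM in well A1 replicate 2 (1.17 to 2.89), and *gal10* at 9.24 CPM in a well A2 library of replicate 2 (1.2 to 3.21).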

How the results depend on the processing

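No fold change or exact test of a named gene reversed its direction in any alternative, and of the fold changes 678 kept their call and 6 lost it, while of the exact tests 903 kept their side of the threshold, 122 fell below it and 9 passed it. Counts of subtelomeric genes called moved more, and where the cause is not the smaller number of libraries or genes it was not tested.

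With the wild type of well A2 alone, 178 tests were higher and 132 lower over the 94 strains, and 8 genes were called in *swd3*Δ, 9 in *cay1*Δ, 7 in *ada2*Δ, 7 in *cdt2*Δ, 6 in *ers1*Δ, 3 in *amo1*Δ and 0 in *arp5*Δ. With well A1 alone the counts were 10 in *swd3*Δ and 0 in *arp5*Δ. At an adjusted p below 0.05 there were 186 higher over the strains, 8 in *swd3*Δ and 0 in *arp5*Δ. Without overlapping genes there were 179 higher, 11 in *mcl1*Δ, 11 in *tcg1*Δ, 11 in the libraries labelled *erg4*Δ, 10 in *swd3*Δ and 6 in *ers1*Δ. Within 50 kb of the end there were 38 higher and 44 lower, 5 in *mcl1*Δ, 1 in *tcg1*Δ, 1 in the libraries labelled *erg4*Δ, 4 in *swd3*Δ, 1 in *cay1*Δ, 3 in *ada2*Δ, 3 in *cdt2*Δ, 3 in *ngg1*Δ, 1 in *ers1*Δ, 1 in *lem2*Δ, 0 in *amo1*Δ and 0 in *arp5*Δ. With the floor on the log2 scale there were 9 in *ada2*Δ, 9 in *ngg1*Δ and 0 in *arp5*Δ, with uncertain decimal points removed 9 in *cdt2*Δ, and without a floor, at a pseudocount of 1 or 0.5, 10 in *amo1*Δ and 3 in *arp5*Δ.

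Libraries with the same replicate number deviated together (median r 0.274 over 4593 genes, −0.101 for different numbers, 88.3% of pairs above 0.1, and 374 of 382 libraries closest to their own number), but no label says what a number stands for. A replicate block gave 372 higher and 252 lower. The same libraries with no replicate block gave 311 higher and 210 lower. With the block there were 3 calls in *arp5*Δ, 9 in *lem2*Δ, 15 in *ngg1*Δ, 18 in *mcl1*Δ and 14 in *ada2*Δ. Without the block there were 2 in *arp5*Δ, 6 in *lem2*Δ, 12 in *ngg1*Δ, 16 in *mcl1*Δ and 12 in *ada2*Δ. In no strain described singly was the count lower with the block. Leaving out 1 library gave 170 to 343 higher and 155 to 220 lower. The counts ran over 11 to 19 in *mcl1*Δ, 17 to 24 in *tcg1*Δ, 14 to 21 in the libraries labelled *erg4*Δ, 6 to 16 in *swd3*Δ, 11 to 15 in *cay1*Δ, 7 to 14 in *ada2*Δ, 4 to 13 in *cdt2*Δ, 8 to 13 in *ngg1*Δ, 8 to 13 in *ers1*Δ, 5 to 7 in *lem2*Δ, 4 to 7 in *amo1*Δ and 0 to 4 in *arp5*Δ. Without the second replicate *mcl1*Δ had 12. Pairs measured in a strain only ran from 303 to 1038, with 303 without the first replicate of the strains, 317 without the third or the fourth, and 841 to 1038 without a wild-type library. Those in wild type only ran from 129 to 724, with 724 without the first replicate, 646 without the second, 672 without the third, 682 without the fourth, and 129 to 216 without a wild-type library. Exact tests passing ran from 0 to 30. Chosen after seeing the data, leaving out the libraries labelled *erg4*Δ gave 274 higher and 218 lower, and keeping genes with at least 50% unique windows gave 265 and 219.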
